A study of Mus musculus with 6 samples.

Results

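Expression of 10 genes of the Notch pathway was examined in the mouse hippocampus, the receptors Notch1, Notch2 and Notch3, the ligands Jag1, Jag2 and Dll1, the DNA-binding effector Rbpj and the target genes Hes1, Hes5 and Hey1, among the 55471 genes of the deposited count table. They were listed by name with no threshold on their values, though with earlier results of these data known, and all 10 passed the filter on low counts that left 17981 genes for testing. Gene expression was profiled by RNA-seq in 3 Control and 3 CBP-ifKO libraries, and the comparison asks how these genes stand after the loss of CBP (gene Crebbp), a lysine acetyltransferase and transcriptional coactivator, from excitatory neurons of the adult forebrain. All 6 libraries came from C57BL/6 mice. CBP-ifKO mice carried floxed Crebbp alleles and the Camk2a-creERT2 transgene, and tamoxifen was given to both genotypes as 5 intragastric doses of 20 mg/mL in corn oil. Mice were 3 to 6 months old, and per the study's methods each library pooled the hippocampi of 3 females kept in standard cages about a month after gene ablation. As the Camk2a promoter drives the recombinase in excitatory neurons, glia, vessels, interneurons and progenitors keep an intact Crebbp gene, and what is left in neurons is a truncated protein. The protocol describes the Control mice as tamoxifen-treated littermates without the recombinase, whereas a label of the Control libraries names the Camk2a-creERT2 transgene. Reads of Esr1, whose sequence is part of the creERT2 transgene, stood at 5.65 to 6.29 CPM (read counts brought to the same sequencing depth) in Control and at 63.6 to 69.4 CPM in CBP-ifKO. If Control mice lack the transgene, its effects and those of CBP loss cannot be told apart between these 2 groups.

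Notch receptors are single-pass membrane proteins that are cut when a Jagged or Delta ligand on a neighbouring cell binds them. The freed intracellular domain enters the nucleus, joins the DNA-binding protein RBPJ and Mastermind, and recruits the acetyltransferases CBP and p300 to switch on target genes such as the HES and HEY repressors. In the adult hippocampus the pathway is best known for keeping neural stem cells of the dentate gyrus undivided and for roles in astrocytes, oligodendrocyte precursors and vessel walls, with further roles described in mature neurons.

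The sequence that links RBPJ to its targets is shown for Hes5, the member with the most complete match in the promoter windows used here. RefSeq promoter windows (assembly GRCm38.p6, 250 bases before to 50 bases after the start site) were at hand for 8 of the 10 members. The target genes Hes1 and Hey1 had no window and were not searched. Both strands were searched for GTGGGAA, the core that RBPJ binds. The window of Hes5 held 2 copies, beginning 226 and 83 bases before the start site on opposite strands and pointing away from each other. The 250 bases before the start site (chr4:154960673-154960922, plus strand) read as follows, with both copies in capitals.
Hes5: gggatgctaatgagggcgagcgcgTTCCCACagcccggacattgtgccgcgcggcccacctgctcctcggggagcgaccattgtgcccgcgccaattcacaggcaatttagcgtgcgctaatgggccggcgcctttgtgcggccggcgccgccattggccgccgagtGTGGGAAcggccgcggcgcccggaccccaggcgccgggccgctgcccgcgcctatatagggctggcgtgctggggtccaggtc
Of 32851 RefSeq windows 6.38% held at least 1 copy and 0.256% held 2 or more. No window of Notch1, Notch2, Notch3, Jag1, Jag2, Dll1 or Rbpj held the core. The shorter TGGGAA, which lies within it and occurs in 25.6% of all windows, was also found in both windows of Rbpj. TGACG, the repeated core of the element bound by CREB, the partner from which CBP takes its name, was in the windows of Jag1 and Notch3 and in 20.8% of all windows. These matches are letters in a window, not measured binding sites.

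Crebbp itself fell in CBP-ifKO. It was counted at 208.6, 156.4 and 208.5 CPM in Control replicates 1, 2 and 3 against 108.6, 87.1 and 99.4 CPM in CBP-ifKO, which is 51.5% of the Control mean (log2 scale -0.96, SE 0.10, edgeR adjusted p = 3.63e-05). Ep300, which encodes the related acetyltransferase p300, was at 101 ± 17.5 and 114 ± 7.80 CPM (SD, n = 3 libraries in each group; log2 fold change 0.18, adjusted p = 0.321). Library totals were 10199008 to 14950257 counts. Over all genes tested, 1149 were called at an edgeR adjusted p under 0.05, 252 higher and 897 lower in CBP-ifKO. That split was 514 higher and 667 lower when libraries were scaled by their totals alone, a scaling that shifted the median of all log2 fold changes from -0.0033 to 0.043, and 371 higher and 727 lower when trends with GC content and gene length were removed. The libraries are pools of animals, and p-values measure the spread between the 3 libraries of each group.

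Among the 10 Notch genes 1 was called, Jag2, which was lower in CBP-ifKO. That is 1 of 10 against 4.99% of all genes tested that were called lower and 6.39% called in either direction. No member was called higher, where 1.4% of all genes were. The fitted log2 fold change was below 0 for 9 of the 10 members, against 50.7% of all genes tested, and for 8 of 10 when libraries were scaled by totals alone, where Rbpj turned to 0.018. All 3 CBP-ifKO libraries lay below all 3 Control libraries for 5 members (Notch1, Jag2, Dll1, Hes5 and Hey1), against 13.9% of all genes tested, and above them for none, against 11.8%. The median log2 fold change of the members was -0.30.

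**Figure D1:**
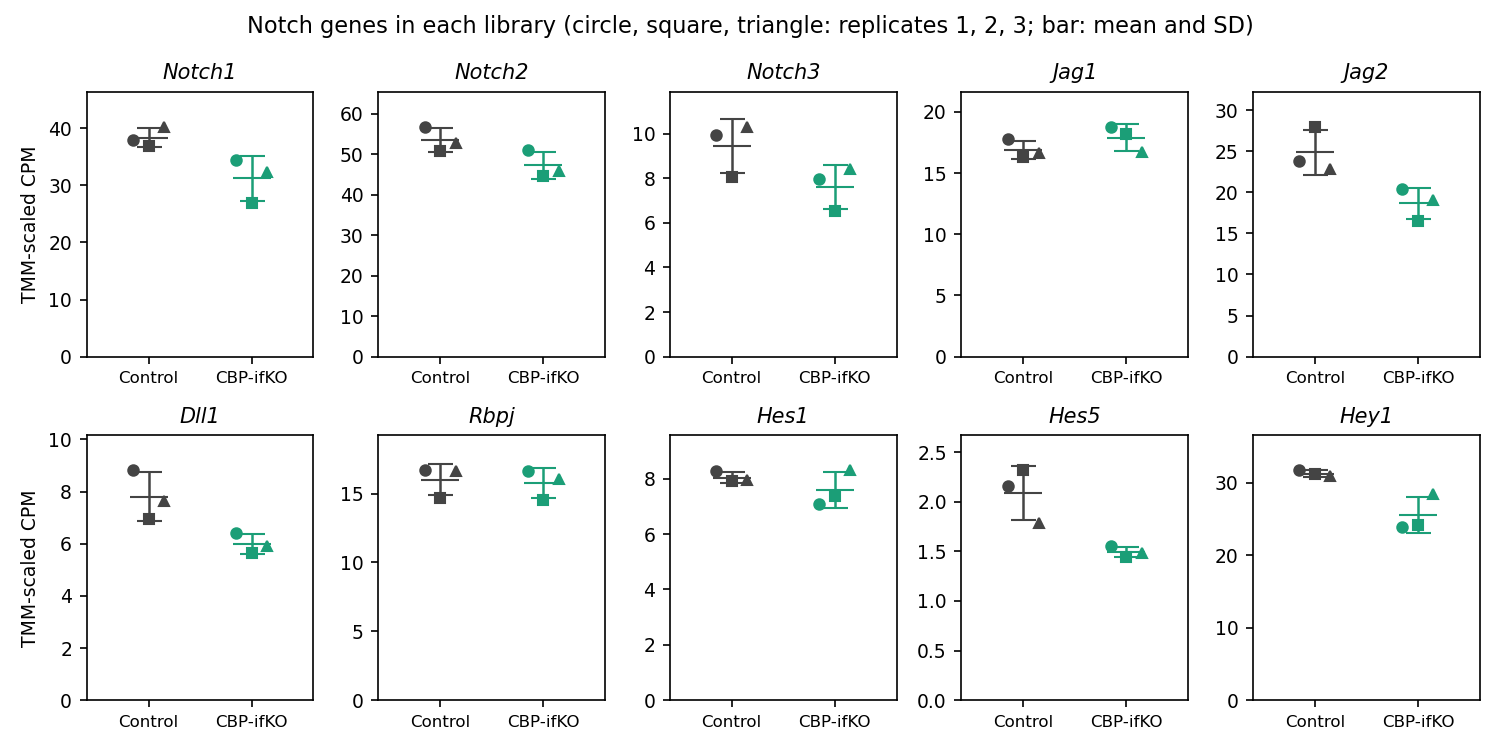
CPM scaled by TMM (vertical axes, each from 0) of the 10 Notch genes in the 3 Control (grey) and 3 CBP-ifKO (green) libraries, with mean and SD. Notch1, Jag2, Dll1, Hes5 and Hey1 show no overlap between the groups, and Jag1, Rbpj and Hes1 show libraries of both groups at the same height.

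The 3 receptors were fitted lower in CBP-ifKO, and none of them passed the test. Notch1 (chr2:26457903-26516663), the receptor best studied in neural stem cells, was at 37.8, 36.9 and 40.3 CPM in Control and at 34.4, 26.9 and 32.3 CPM in CBP-ifKO. The groups did not overlap, and CBP-ifKO replicate 2 was the lowest library. The mean in CBP-ifKO was 81.3% of the Control mean (log2 fold change -0.31, SE 0.09, edgeR adjusted p = 0.064). Without CBP-ifKO replicate 1 it was -0.38 with an adjusted p of 0.043, and Notch1 was also called with the replicate block (adjusted p = 0.045). Notch2 (chr3:98013527-98150361) was at 56.9, 50.9 and 52.8 CPM in Control and at 51.2, 44.8 and 45.9 CPM in CBP-ifKO. The highest mutant library stood just above the lowest Control library (log2 fold change -0.18, SE 0.08, adjusted p = 0.180). Notch3 (chr17:32120820-32166852), the receptor of smooth muscle cells and pericytes in vessel walls, was at 9.95, 8.07 and 10.3 CPM in Control and at 7.95, 6.51 and 8.39 CPM in CBP-ifKO. Its groups overlapped (log2 fold change -0.32, SE 0.15, adjusted p = 0.241). Part of the exon bases of each receptor was shared with other annotated genes, for Notch1 7.5% with 0610009E02Rik and 2.91% with Gm13568 on the opposite strand, for Notch3 6.03% with Gm17276 on the opposite strand and for Notch2 5.02% with Gm42820 on the same strand. Reads of the stretch in Notch2 could belong to either gene, and for the other receptors the strand setting of the counting, which would tell the genes apart, is not given in the sources used here.

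Of the 3 ligands Jag2 was called lower, and Jag1 and Dll1 missed the threshold. Jag2 (chr12:112907819-112929776) was at 23.9, 28.0 and 22.8 CPM in Control and at 20.3, 16.6 and 19.0 CPM in CBP-ifKO. The highest CBP-ifKO library lay below the lowest Control library, and replicate 2 was the highest Control and the lowest CBP-ifKO library. The log2 fold change was -0.43 (SE 0.11, 95% interval -0.66 to -0.20, adjusted p = 0.028), 74.9% of the Control mean. The call was lost when Control replicate 2 was left out (log2 fold change -0.32, adjusted p = 0.087), as it was without CBP-ifKO replicate 2 (-0.34, adjusted p = 0.161) or 3 (-0.43, adjusted p = 0.094). It was also lost when trends with GC content and length were removed (-0.17, adjusted p = 0.323). Jag1 (chr2:137081456-137116644), the other Jagged ligand, was at 17.7, 16.3 and 16.7 CPM in Control and at 18.8, 18.2 and 16.7 CPM in CBP-ifKO. CBP-ifKO replicate 3 stood level with Control replicate 3, and the log2 fold change was 0.08 (SE 0.10, 95% interval -0.13 to 0.30, adjusted p = 0.713). Dll1 (chr17:15367354-15376872), the Delta ligand of the list, was at 8.83, 6.96 and 7.64 CPM in Control and at 6.40, 5.65 and 5.92 CPM in CBP-ifKO. Its groups did not overlap, yet the log2 fold change of -0.39 (SE 0.15, adjusted p = 0.151) missed the threshold. Counts behind these values were 66 to 94 reads per library for Dll1, and 20.5% of its exon bases were shared with A930024N18Rik on the opposite strand.

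Rbpj (chr5:53466152-53657362), the DNA-binding protein on which the pathway converges, was at 16.7, 14.7 and 16.7 CPM in Control and at 16.7, 14.5 and 16.05 CPM in CBP-ifKO. Each CBP-ifKO library was within the range of Control or just under it. The log2 fold change was -0.03 (SE 0.11, 95% interval -0.26 to 0.20, adjusted p = 0.926).

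The target genes were fitted lower by unequal amounts, and none passed the test. Hey1 (chr3:8663359-8667256), a repressor of the HEY family, was at 31.7, 31.2 and 30.8 CPM in Control and at 23.9, 24.2 and 28.5 CPM in CBP-ifKO. The Control libraries lay close together, the CBP-ifKO libraries all stood below them, and CBP-ifKO replicate 3 was nearest to Control. The log2 fold change was -0.29 (SE 0.09, 95% interval -0.49 to -0.10, adjusted p = 0.069). Under the replicate block combined with offsets for GC content and length, Hey1 was called (-0.26, adjusted p = 0.044). Hes5 (chr4:154960923-154962371), the repressor whose promoter window holds the pair of RBPJ cores, was at 2.16, 2.32 and 1.79 CPM in Control and at 1.55, 1.45 and 1.48 CPM in CBP-ifKO. These levels rest on 16 to 27 reads per library. The groups did not overlap, and the interval was wide (log2 fold change -0.49, SE 0.26, 95% interval -1.05 to 0.06, adjusted p = 0.301). For Hes5, 31.8% of the exon bases were shared with Gm20421 on the opposite strand. Hes1 (chr16:30064384-30067796), the other HES repressor, was at 8.26, 7.90 and 7.93 CPM in Control and at 7.07, 7.36 and 8.31 CPM in CBP-ifKO. CBP-ifKO replicate 3 was the highest of all 6 libraries (log2 fold change -0.08, SE 0.14, 95% interval -0.38 to 0.21, adjusted p = 0.798).

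**Figure D2:**
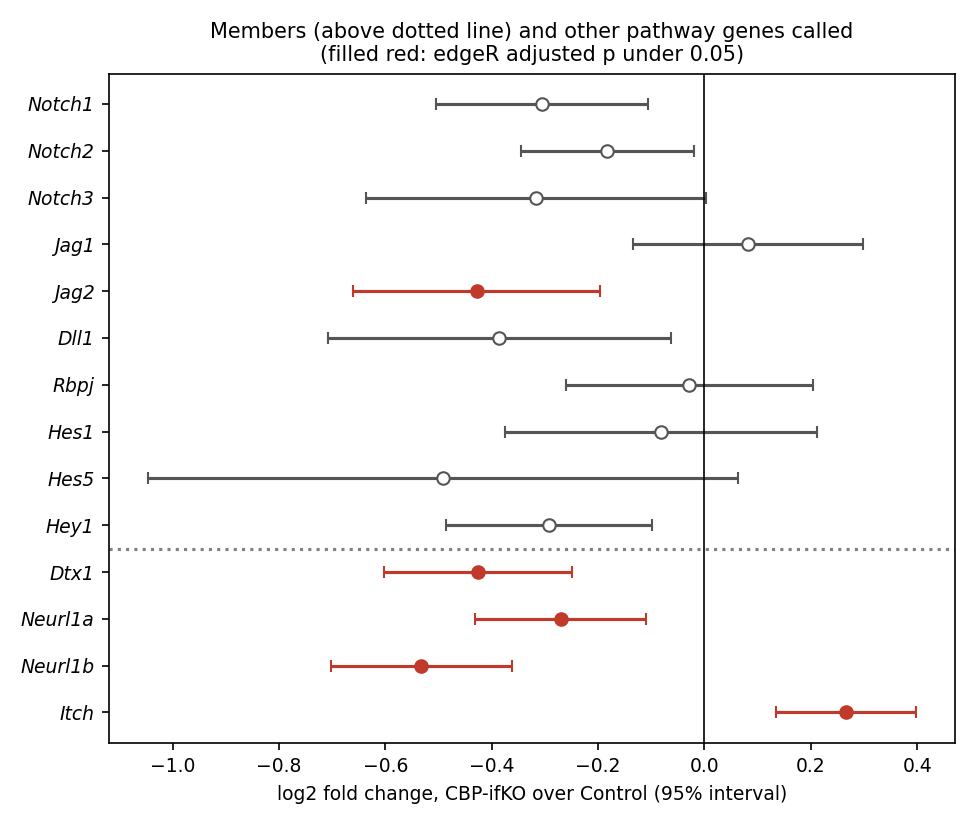
Log2 fold change of CBP-ifKO over Control (horizontal axis) with its 95% interval for the 10 Notch genes and, under the dotted line, the 4 other pathway genes called besides Crebbp. Filled red marks an edgeR adjusted p under 0.05, which among the 10 members Jag2 alone reached.

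Levels of the members were set in order by CPM per kilobase of merged exons, which allows a rough comparison of genes of unequal length. Merged exons join all annotated transcripts of a gene, and which of them are expressed was not measured. In Control, Hey1 was highest at 9.57 ± 0.14 CPM per kilobase (SD, n = 3), and Notch2 followed at 4.96 ± 0.28. Hes1 stood at 3.94 ± 0.10 and Jag2 at 3.57 ± 0.39, with overlapping libraries. Jag1 was at 2.90 ± 0.13 and Notch1 at 2.69 ± 0.12, again overlapping. Dll1, Hes5, Rbpj and Notch3 closed the order at 1.85 ± 0.22, 1.53 ± 0.20, 1.26 ± 0.09 and 1.17 ± 0.15 CPM per kilobase, each overlapping its neighbour. In CBP-ifKO the order began with the same 3 genes, Hey1 at 7.82 ± 0.78, Notch2 at 4.39 ± 0.32 and Hes1 at 3.72 ± 0.32. Jag1 (3.07 ± 0.19) then stood above Jag2 (2.68 ± 0.28), with overlapping libraries, whereas in Control every Jag2 library was above every Jag1 library. Rbpj (1.24 ± 0.09) stood above Hes5 (1.10 ± 0.04), the reverse of the Control order. Here their libraries all but touched, with the lowest of Rbpj at 1.139 and the highest of Hes5 at 1.138, so the order is not secure. Notch2 was the receptor with the highest level in both groups.

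Replicates 2 of both groups were the low libraries for most members. Among the Control libraries 7 of the 10 members were lowest in replicate 2, where 37.4% of all genes tested were lowest. In CBP-ifKO 7 of 10 were lowest in replicate 2, against 36.3% of all genes. With CBP-ifKO replicate 2 left out the members had a median of -0.20 and none was called, against 2.72% of all genes. With Control replicate 2 left out the median was -0.30 with none called, against 7.24%. None was called either without CBP-ifKO replicate 3 (2.87% of all genes), and 2 were called without CBP-ifKO replicate 1 (4.92%). Without Control replicate 1 (5.2%) or Control replicate 3 (2.94%), as in DESeq2 (2.58%) and limma-voom (6.42%), 1 member was called. The count was 2 without a filter on low counts (4.31%) and with the replicate block (6.73%), 1 with block and offsets together (10.2%) and 0 at an adjusted p under 0.01 (2.65%). The shares for DESeq2 and for no filter were over 35043 genes with at least 1 count, against 17981 for limma-voom. DESeq2 gave no adjusted p for some genes, Hes5 among them, so its share is not comparable with those over filtered genes.

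GC content moved with the fold changes of the Notch genes. The longest transcripts of the members held 43.7% to 62.1% GC, with a median of 54.3% against 48.3% over all genes tested. Hes5 (62.1%), Jag2 (61.9%) and Notch3 (59.6%) lay among the 10% of genes richest in GC, and Notch1 (57.1%) and Dll1 (54.9%) in the next 10%. Across the 10 members GC content and log2 fold change ran in opposite order (Spearman rho -0.94, Pearson r -0.87, genes that share all 6 libraries). Over the 54 other pathway genes tested rho was -0.52, and over 17956 genes tested with a known GC content rho was -0.29. In the richest 10% (57.2% to 78.3% GC) the median log2 fold change was -0.19, 80.4% of genes were fitted below 0 and 16.2% were called lower. The differences of Hes5, Jag2 and Notch3 from the median of those genes were -0.31, -0.24 and -0.13. With offsets that remove per-library trends in GC content and length, the median of the members was -0.13, none was called, against 6.11% of all genes, and 9 of 10 stayed below 0. Across the members GC content and log2 fold change still ran in opposite order with these offsets (rho -0.62, r -0.55). Notch1 was then at -0.15, Notch2 at -0.10, Notch3 at -0.11 and Hes5 at -0.25. Dll1 went from -0.39 to -0.30 (adjusted p = 0.280). Hey1 at -0.26 (adjusted p = 0.086) moved little, and Jag1 at 0.09, Hes1 at -0.08 and Rbpj at -0.04 hardly moved.

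**Figure D3:**
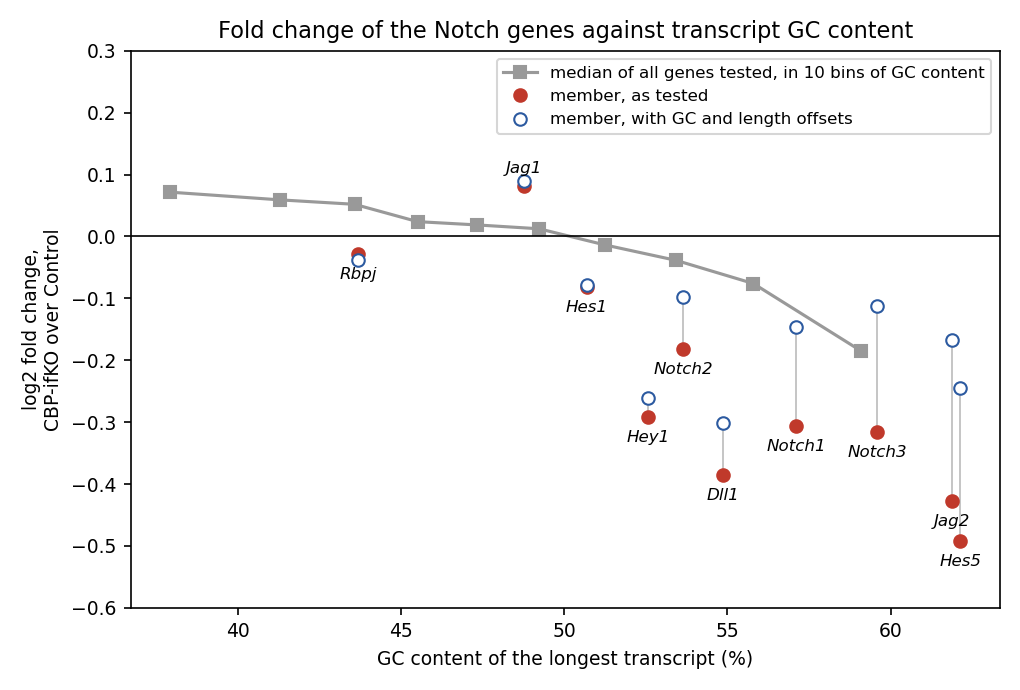
Log2 fold change of CBP-ifKO over Control (vertical axis) against GC content of the longest transcript in percent (horizontal axis) for the 10 Notch genes, as tested (red) and with GC and length offsets (open blue), with the medians of all genes tested in 10 bins of GC content (grey squares). Jag2 moved from -0.43 to -0.17 and Hes5 from -0.49 to -0.25, while Hey1, at lower GC content, moved from -0.29 to -0.26.

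Of 58 other genes of the pathway 54 were tested, and 1 was higher and 4 were lower in CBP-ifKO, Crebbp included, against 1.4% and 4.99% of all genes tested. Their median log2 fold change was -0.05 without Crebbp, and all 49 others missed the threshold. Neurl1b (chr17:26414829-26446349), a Neuralized ubiquitin ligase that drives uptake of ligands, was at 72.5, 60.1 and 61.0 CPM in Control and at 45.4, 43.0 and 45.6 CPM in CBP-ifKO. The groups stood well apart (log2 fold change -0.53, SE 0.08, edgeR adjusted p = 7.66e-04). With GC and length offsets it was still called (-0.42, adjusted p = 0.0067), as it was without any 1 library (largest adjusted p = 0.010).

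Neurl1a (chr19:47178820-47259441), its relative, was at 83.0, 85.5 and 77.0 CPM in Control and at 69.7, 61.3 and 73.2 CPM in CBP-ifKO (-0.27, SE 0.08, adjusted p = 0.042). That call was lost without any 1 of the 6 libraries (adjusted p = 0.067 to 0.216) and with GC and length offsets, where the sign turned (0.02, adjusted p = 0.900). With library totals alone (-0.23, adjusted p = 0.091), with upper-quartile scaling (adjusted p = 0.052) and in DESeq2 (adjusted p = 0.056) it was likewise not called, and 9.47% of its exon bases were shared with AC132288.2. Itch (chr2:155133509-155226855), a ubiquitin ligase that marks Notch for breakdown, was at 123.4, 110.5 and 116.9 CPM in Control and at 137.6, 145.2 and 139.0 CPM in CBP-ifKO. It was the 1 pathway gene called higher (0.27, SE 0.06, adjusted p = 0.016), and it stayed so with GC and length offsets (0.24, adjusted p = 0.012). The adjusted p of Itch was 0.073 with Control replicate 3 left out, 0.066 with CBP-ifKO replicate 2 left out and 0.058 with CBP-ifKO replicate 3 left out.

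Dtx1 (chr5:120680202-120711927), the Deltex ubiquitin ligase and a known Notch target, was at 37.2, 42.1 and 37.4 CPM in Control and at 29.2, 28.0 and 29.9 CPM in CBP-ifKO (-0.43, SE 0.08, adjusted p = 0.0052). Its groups did not overlap, and the call held without any 1 library (largest adjusted p = 0.039). It was lost with GC and length offsets, at -0.15 (adjusted p = 0.247).

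By role, to be read against 6.39% of all genes called, the coactivators counted 1 called of 8, which was Crebbp, and the corepressors and RBPJ partners 0 of 8 tested. None of the 9 genes of receptor cleavage and none of the 6 glycosyltransferases was called. Among the cleavage genes Adam10, whose product cuts ligand-bound Notch, was at 118 ± 12.1 and 117 ± 6.38 CPM (log2 fold change -0.01, adjusted p = 0.972). Of ligand and receptor ubiquitination and trafficking 3 of 12 were called, Neurl1a and Neurl1b lower and Itch higher. The remaining receptor, Notch4, was at 5.63, 4.04 and 3.87 CPM in Control and at 3.39, 3.35 and 3.87 CPM in CBP-ifKO (-0.35, adjusted p = 0.336). Of the other HES and HEY genes Hey2 was at -0.30 (adjusted p = 0.377), Heyl at 0.40 (adjusted p = 0.436) and Hes6 at 0.06 (adjusted p = 0.896).

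**Figure D4:**
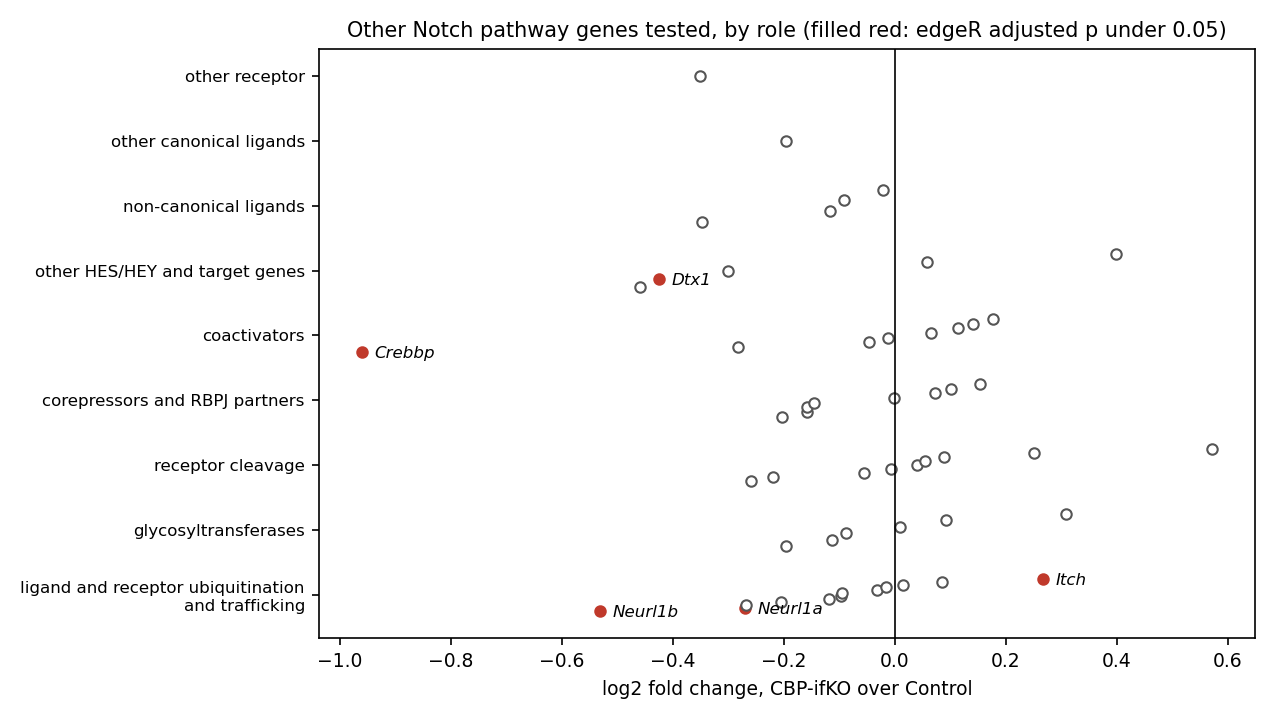
Log2 fold change of CBP-ifKO over Control (horizontal axis) of the 54 other Notch pathway genes tested, 1 point a gene, arranged by role (vertical axis), with the 5 genes at an edgeR adjusted p under 0.05 filled red and named. Neurl1b and Itch also passed with GC and length offsets, whereas Dtx1 and Neurl1a did not.

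Several cell types that use Notch signaling also differed in their markers, and in bulk tissue fewer cells of a type and less RNA per cell cannot be told apart. Counts of markers called lower are to be read against 4.99% of all genes tested. The 7 markers of oligodendrocyte precursors, which carry Notch receptors, summed to 213 to 225 CPM in Control and 164 to 170 CPM in CBP-ifKO, 76.0% of the Control mean. Of these 7, 5 were called lower, Pdgfra (-0.38, adjusted p = 0.0026), Cspg4 (-0.57, adjusted p = 0.0025), Lhfpl3 (-0.47, adjusted p = 0.013), Vcan (-0.30, adjusted p = 0.022) and Gpr17 (-0.36, adjusted p = 0.043). All but Gpr17 stayed called with GC and length offsets. The 10 markers of newborn neurons and progenitors summed to 81.1 to 83.6 CPM in Control and 63.7 to 66.7 CPM in CBP-ifKO, with 2 of 6 tested called lower, the proliferation marker Mki67 (-0.53, adjusted p = 0.027) and Sox11 of young neurons (-0.50, adjusted p = 0.010). The 11 mural markers of vessel walls overlapped between groups (223 to 244 and 180 to 227 CPM), with 2 of 9 tested called lower, Myh11 (-0.70, adjusted p = 0.011) and Vtn (-0.40, adjusted p = 0.012). Of those 9, 6 were fitted below 0, while Abcc9 (0.13), Anpep (0.21) and Higd1b (0.06) were fitted above 0 and not called. The 10 astrocyte markers (5536 to 6357 and 5671 to 5796 CPM) and the 10 endothelial markers (215 to 237 and 188 to 234 CPM) overlapped as well, and none was called. None of these lists had a marker at 0 in all libraries, and their part in the values of the Notch genes was not tested.

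**Figure D5:**
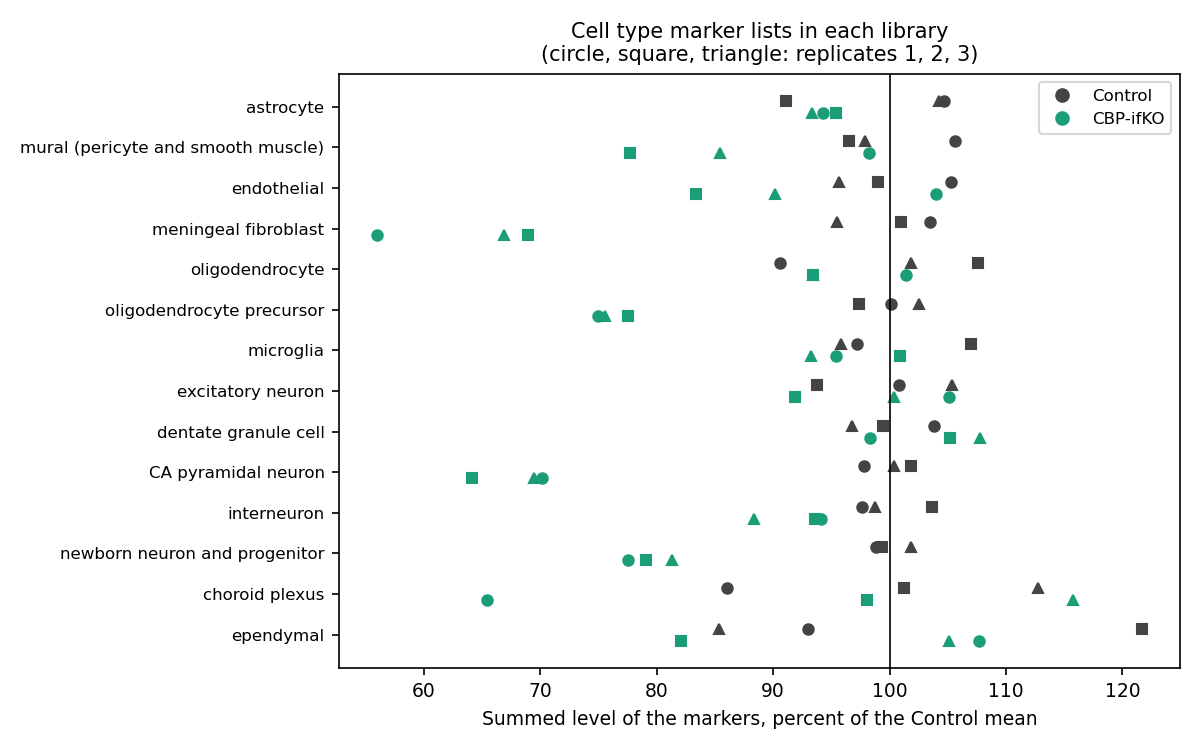
Summed level of 14 cell type marker lists (vertical axis) in each library as a percent of the Control mean (horizontal axis), Control in grey and CBP-ifKO in green. The oligodendrocyte precursor list stood at 76.0% and the newborn neuron and progenitor list at 79.3% in CBP-ifKO without overlap, while the astrocyte list overlapped at 94.3%.

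Among the neuronal lists, the sum of the excitatory list, led by Camk2a and Slc17a7, overlapped between groups. It was 2936 to 3299 CPM in Control and 2877 to 3290 CPM in CBP-ifKO. Of its 8 genes 3 were called lower, Nrgn (-0.73), Itpka (-0.58) and Rtn4rl2 (-0.71), where 4.99% of all genes tested were. Of the 8, 6 were fitted below 0, and the largest log2 fold change was 0.20. With GC and length offsets 2 were called lower and 1 higher, where 6.11% of all genes were called in either direction. The sums of the 6 CA pyramidal markers did not overlap (409 to 425 and 268 to 293 CPM), with 3 called lower, nor did those of the 8 interneuron markers (558 to 593 and 505 to 538 CPM), with 2 called lower. Those of the 6 dentate granule cell markers overlapped (714 to 766 and 726 to 796 CPM), with 3 fitted below 0 and 1 called lower.

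Over the 6 libraries the gene whose log2 CPM followed each member most closely was sought among the 153 listed genes. Groups were pooled, so that a shared difference between genotypes enters each coefficient. Each coefficient is the highest of 153 over only 6 libraries, so a high value can arise from the search alone, and none was tested. For Jag2 and Hes5 the closest gene was C1ql1, listed under oligodendrocyte precursors (Pearson r 0.99 and 0.96). C1ql1 held 65.8% GC and rested on 28 to 52 reads per library. For Dll1 and Notch2 it was Myh11 of smooth muscle (0.98 and 0.93), for Hey1 it was Sox11 (0.95) and for Notch1 the vesicular inhibitory transporter Slc32a1 (0.97). For Rbpj it was Kcnj8 of pericytes (0.95), for Hes1 it was Slc6a13 of meningeal fibroblasts (0.93) and for Notch3 the RBPJ partner Spen (0.88). Jag1 had the loosest partner, Ncor1 (0.80).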

How the data were processed

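Hippocampal RNA was sequenced as single 50 bp reads in 6 libraries, 3 per genotype. Per the labels and the study's methods, the authors trimmed adapters with Trim Galore 0.6.4, aligned reads with STAR 2.6.1 to mm10 (GRCm38), kept those with a mapping quality over 10 and deposited raw counts per gene over exons (Rsubread, Ensembl release 99). The strand setting is not given in the sources used here.

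Groups came from the sample labels. Counts were tested with edgeR 4.0.16 (R 4.3.3): TMM scaling, filterByExpr (minimum count 10, minimum total 15), quasi-likelihood F-test on genotype, Benjamini-Hochberg adjustment over 17981 genes, threshold 0.05. The study's own test was DESeq2, which was run as an alternative (1.42.0), as was limma-voom (3.58.1). Gene positions and GC content came from an annotation of GRCm38 that matched 99.6% of gene IDs. GC and length offsets were natural splines with 5 degrees of freedom fitted per library. CPM values were TMM-scaled, and the position of a Notch gene is that of its annotated ends. Scripts were tested on simulated data.

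The members and lists were chosen with earlier results of these data known. All 10 members, Crebbp, Ep300 and Esr1 were named by rule, with every other pathway gene past the threshold, and a few listed genes are not reported here. Adam10, Notch4, Hey2, Heyl, Hes6 and the markers named singly were chosen after their values were seen. Totals of 10199008 to 14950257 counts limit the precision of Hes5 most, at 16 to 27 reads.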

Additional observations from a re-analysis of the deposited data

How the results depend on the processing

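Of 11 alternatives with all 6 libraries and 6 that leave out 1 library each, Jag2 was called in 9 of 11 and 3 of 6, Notch1 in 2 of 11 and 1 of 6, Hey1 in 1 of 11, and Notch2, Notch3, Jag1, Dll1, Rbpj, Hes1 and Hes5 in none (DESeq2 gave no adjusted p for Hes5). Crebbp was called in all 11 and all 6. Jag2 was -0.17 with GC and length offsets and -0.17 (adjusted p = 0.278) with the replicate block added, and -0.49 to -0.32 with 1 library left out. Notch1 was called at -0.30 without a filter on low counts (adjusted p = 0.038) and at -0.31 with the replicate block (adjusted p = 0.045), and ranged from -0.38 to -0.20 with 1 library left out. Hey1 was called at -0.26 with the block and offsets together (adjusted p = 0.044). Rbpj, near 0 throughout, changed sign to 0.018 with library totals alone, and ranged from -0.081 to 0.039 with 1 library left out (0.0037 without Control replicate 1, 0.0034 without Control replicate 3 and 0.039 with CBP-ifKO replicate 2 left out). The cause of these changes was not tested.

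The number of members called was 2 without a filter, 2 with the block, 0 with offsets, 0 at an adjusted p under 0.01 and 0 to 2 with 1 library left out. At 0 calls with offsets in edgeR, limma-voom and DESeq2 without offsets each called 1. The number of other pathway genes called was 3 with offsets, 3 at an adjusted p under 0.01 and 3 to 5 with 1 library left out. Over all genes 1839 were called with block and offsets, 476 at 0.01, and 498 to 1326 with 1 library left out. With library totals alone the astrocyte, oligodendrocyte precursor and newborn neuron lists stood at 97.4%, 78.5% and 81.9% of Control. Same-numbered libraries showed no common deviation (r = 0.077, 0.037 and 0.0022), so the block, under which 1210 genes were called, is given only as an alternative. Depth limits Hes5 and Dll1 most.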

Other observations

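The marker list with the lowest CBP-ifKO level as a percent of Control, of the 14 lists, was that of meningeal fibroblasts, the collagen-making cells of the brain's coverings. Its 7 genes summed to 76.2 to 82.5 CPM in Control and 44.7 to 55.0 CPM in CBP-ifKO, 64.0% of the Control mean. Dcn alone made up most of the sum in each library, so the rank of the list rests on that gene. All 6 genes tested were fitted lower and 2 were called lower, where 4.99% of all genes were. Col1a1 (edgeR adjusted p = 0.372), Col1a2 (0.400), Lum (0.127) and Slc6a13 (0.187) missed the threshold. Dcn, which encodes the matrix proteoglycan decorin, averaged 57.9 ± 0.38 CPM in Control against 35.6 ± 4.28 CPM after ablation (SD, n = 3; log2 fold change -0.69, edgeR adjusted p = 1.33e-04). Col3a1, a fibrillar collagen, was at 2.99 ± 0.27 and 1.52 ± 0.35 CPM (-0.98, adjusted p = 0.029). Both were still called with GC and length offsets (-0.74 and -0.91).

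Wfs1, a marker of CA1 pyramidal neurons, averaged 49.1 ± 3.29 CPM in Control against 21.5 ± 1.16 CPM after ablation (-1.19, adjusted p = 8.34e-07), a larger fold than that of any Notch gene. Fibcd1 and Mpped1 of the same list were at -0.63 and -0.62. Sst, the neuropeptide of a class of interneurons that keep an intact Crebbp gene, was at 76.3 ± 9.42 and 53.8 ± 2.83 CPM (-0.51, adjusted p = 0.0015). The 8 interneuron markers ranged from -0.51 to 0.16 with a median of -0.13, and 6 were fitted below 0. With GC and length offsets 1 of the 8 was called lower, where 6.11% of all genes were called in either direction.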
